A study of Rattus norvegicus with 4 samples.

Results

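Metallothioneins and detoxifying enzymes are described here through 6 genes, Mt2A, Mt3, Aldh3a1, Gstm1, Gpx3 and Fmo1, in the cell classes of the adult rat pituitary. They were chosen by symbol from the 32883 genes of the count matrix. The choice was made with earlier results of these data known, so counts of calls among them are a description only. All 6 symbols were present and all 6 passed the filter on low counts. The Ensembl identifiers given with the counts are ENSRNOG00000043098 for Mt2A, ENSRNOG00000018958 for Mt3, ENSRNOG00000002331 for Aldh3a1, ENSRNOG00000029726 for Gstm1, ENSRNOG00000052564 for Gpx3 and ENSRNOG00000034191 for Fmo1.

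The series is a single-cell RNA sequencing survey of the pituitary that is concerned with folliculostellate cells, the non-endocrine, glia-like cells of the anterior lobe. All animals were female Sprague Dawley rats of 75 days, collected at random stages of the estrous cycle. Anterior and posterior lobes dissected from 30 glands were pooled into 1 anterior and 1 posterior library, and a further 30 whole glands were pooled into 1 suspension that was run on 2 lanes. The dissected and the whole preparation are therefore the 2 replicates behind every test between cell classes, and the lanes are technical repeats of 1 suspension. Preparation is a term of the fit, so a shift common to all classes between the pools is taken out. In the dissected preparation, however, pituicyte-like sums came from the posterior library, and folliculostellate- and hormone-cell sums from the anterior library. A shift between those libraries is therefore not taken out where pituicyte-like cells are compared with either. The p-values measure the scatter of class sums that is left. All classes share the estimate of this scatter, since each has only 2 sums, and it does not measure the spread between animals.

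Metallothioneins are small, cysteine-rich proteins that bind zinc and copper. Their genes are classically switched on by the metal-responsive factor MTF1, and Mt3 is the family member best known from brain. Aldehyde dehydrogenases oxidise reactive aldehydes, glutathione transferases couple glutathione to electrophiles, glutathione peroxidases reduce peroxides, and flavin-containing monooxygenases oxidise nitrogen and sulphur in foreign compounds. Folliculostellate cells and pituicytes, the glia of the posterior lobe, share markers such as S100b and Sox2, and the other classes serve as the setting against which both were read.

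After filtering, 19724 cells were kept, between 3828 and 5516 per library, with median depths from 9539 to 10592.5 UMIs (unique molecular identifiers, each standing for 1 captured transcript). The posterior library differed from the rest in that 45.4% of its barcodes exceeded the mitochondrial limit, against 27.2% to 27.9% in the other libraries. Pairs of libraries shared 3 to 10 cell barcodes. Cells were clustered without the 144 listed genes, and clusters were named from marker genes. Folliculostellate-like cells (2859) had 893 CPM of S100b (UMIs scaled to a total of 1e6) against 1.73 in the hormone cells, and pituicyte-like cells (1205) had 281 CPM of Rax against 0.271. These markers also served to name the clusters, so their levels are no separate check of the names. S100b was at 599 CPM in pituicyte-like cells as well. Lhx3, another folliculostellate marker, was at 48.6 CPM in folliculostellate-like cells against 31.6 in the hormone cells. Of the pituicyte-like cells, 1108 came from the posterior library and 97 from the whole glands. In the folliculostellate-like sums, 5 endothelial markers together reached 3.19 CPM (dissected) and 4.34 CPM (whole), and 6 macrophage markers 44.0 and 24.3 CPM. Sums of pericyte, fibroblast and Schwann markers there lay between 6.98 and 24.5 CPM. The 5 melanotroph markers, which include the hormone gene Pomc, were far higher, at 859 and 1469 CPM in folliculostellate-like and at 3859 and 1072 CPM in pituicyte-like sums, and the part of such RNA in the values below was not tested except where stated.

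Sequences upstream of the metallothionein genes are shown because Mt1, Mt2A and Mt3 lie side by side in the RefSeq annotation, yet differed between the cell classes. Each is the 250 bases before the annotated start, from RefSeq on the GRCr8 build, read 5′ to 3′ on the minus strand of chromosome 19. Mt2A is at chr19:10838709-10838958, Mt3 at chr19:10856081-10856330 and Mt1 at chr19:10832976-10833225. Capitals mark the core of the metal response element (TGCACNC or TGCGCNC, either strand).
Mt2A: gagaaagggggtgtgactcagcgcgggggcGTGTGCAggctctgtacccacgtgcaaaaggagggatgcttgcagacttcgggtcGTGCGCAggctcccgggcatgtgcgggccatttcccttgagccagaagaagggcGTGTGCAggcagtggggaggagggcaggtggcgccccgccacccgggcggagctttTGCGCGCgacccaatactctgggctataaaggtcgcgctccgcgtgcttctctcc
Mt3: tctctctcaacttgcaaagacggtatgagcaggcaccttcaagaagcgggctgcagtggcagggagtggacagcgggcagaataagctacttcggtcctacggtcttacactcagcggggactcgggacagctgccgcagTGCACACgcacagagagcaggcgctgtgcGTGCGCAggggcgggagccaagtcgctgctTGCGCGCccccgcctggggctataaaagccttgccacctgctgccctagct
Mt1: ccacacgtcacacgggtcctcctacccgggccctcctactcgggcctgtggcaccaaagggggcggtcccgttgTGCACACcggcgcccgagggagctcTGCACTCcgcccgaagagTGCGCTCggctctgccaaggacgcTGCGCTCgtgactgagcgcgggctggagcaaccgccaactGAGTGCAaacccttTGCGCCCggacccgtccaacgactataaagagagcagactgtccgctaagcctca
The searched window held 4 metal response cores for Mt2A, 3 for Mt3 and 6 for Mt1. Of 33469 rat promoter windows of the same length, 20.6% held at least 1 such core, 0.266% held as many as Mt2A or more, 1.17% as many as Mt3 and 0.0269% as many as Mt1. The core of the antioxidant response element (TGACNNNGC, either strand), which overlaps none of the marked cores, occurred 1 time each for Mt2A and Mt1, was absent from the Mt3 window, and was held by 10.1% of all windows. The windows of Gstm1 and Gpx3 held neither core and that of Fmo1 held 1 metal response core. Mt4, next to Mt3, also had 1 core in its window, and gave 0 or 1 UMI in each class and library. Aldh3a1 was not matched in the promoter table.

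Levels are given below as CPM of a class in a library. Differences are log2 fold changes from edgeR's quasi-likelihood fit to class sums with preparation as a term. A gene was called when its Benjamini-Hochberg adjusted p was under 0.05 and its log2 change was at least 1 in size. Hormone cells means the average over lactotroph-, somatotroph-, corticotroph- and gonadotroph-like sums. Against hormone cells, 5 of the 6 genes were called higher in folliculostellate-like cells and Gpx3 was called lower. Over all 15197 genes tested in that comparison, 22.9% were called higher and 12.2% lower, 35.1% in all. The 2 glia-like classes differed from each other in 5 of the 6 genes: Mt2A, Aldh3a1, Gstm1 and Fmo1 were called higher in folliculostellate-like cells, Gpx3 was called lower, and Mt3 was not called. In that comparison 29.3% of genes were called.

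**Figure D1:**
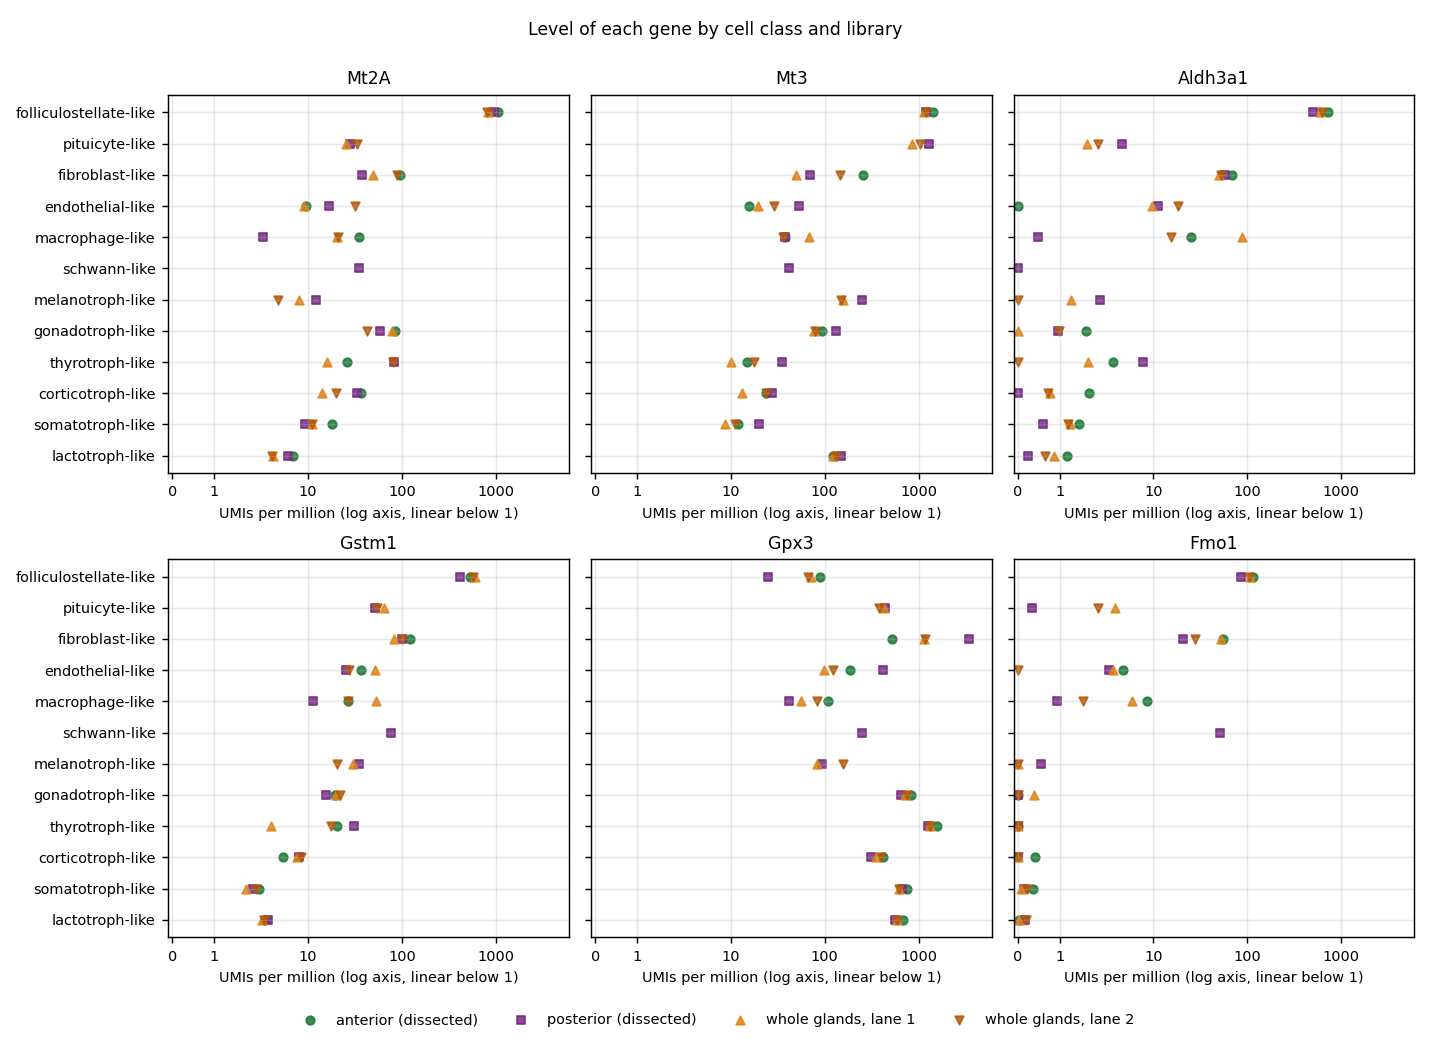
Level of each gene by cell class and library. The horizontal axis is CPM on a log axis that is linear below 1, each point is the pooled sum of 1 class in 1 library with at least 20 cells, and the symbols mark the anterior, posterior and 2 whole-gland libraries. Mt2A, Aldh3a1, Gstm1 and Fmo1 stood highest in folliculostellate-like cells and Mt3 in folliculostellate- and pituicyte-like cells. Gpx3 stood highest in fibroblast-, thyrotroph-, gonadotroph-, somatotroph- and lactotroph-like cells, and was low in melanotroph-like cells.

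Mt2A, one of the broadly inducible metallothioneins, was at 1041 CPM in the folliculostellate-like cells of the anterior library, 960 in the few of the posterior library, and 819 and 808 in lanes 1 and 2. In pituicyte-like cells it was at 27.7 CPM in the posterior library and at 25.3 and 33.5 in the lanes. The 2 classes were far apart in each of the 3 libraries that held both, since the anterior library had no pituicyte-like cells. In folliculostellate-like cells Mt2A was higher than in pituicyte-like cells by a log2 change of 5.19 (SE 0.28, edgeR adjusted p = 6.508e-13) and higher than in hormone cells by 5.25 (SE 0.15, adjusted p = 1.531e-18). The next classes in order were gonadotroph-like cells at 83.2 CPM (dissected) and 62.5 CPM (whole) and fibroblast-like cells at 50.5 and 71.1, whose ranges overlapped. Lactotroph-like cells were lowest, with 6.91 and 4.21 CPM. Between pituicyte-like and hormone cells the Mt2A difference was 0.06 (SE 0.23, edgeR adjusted p = 0.861).

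Its neighbour Mt1, which is not one of the 6 but belongs to the same family, was at 733 and 650 CPM in folliculostellate-like cells of the dissected and whole preparations and at 45.6 and 43.2 CPM in pituicyte-like cells. Hormone cells averaged 174 and 142 CPM, between the 2 glia-like classes. Mt1 was called higher in folliculostellate-like than in hormone cells (2.11, SE 0.11, edgeR adjusted p = 9.097e-14) and lower in pituicyte-like than in hormone cells (-1.92, SE 0.16, adjusted p = 5.855e-10). Mt1m, another member of the family that was named after its values were seen, gave 103 and 155 UMIs (12.2 and 10.2 CPM) in folliculostellate-like cells. Metallothioneins are short and alike in their coding parts, so reads near-identical between copies could be split or lost by the counting.

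Mt3, which in brain is found in neurons and astrocytes, was at 1406 CPM in folliculostellate-like cells of the anterior library, 1186 in the posterior library, and 1143 and 1207 in the lanes. In pituicyte-like cells it was at 1281 CPM in the posterior library and 840 and 1026 in the lanes. The ranges of both classes overlapped, and both lay above every other class. Melanotroph-like cells came next with 249 CPM (dissected) and 153 CPM (whole), then lactotroph-like cells with 124 and 126. Somatotroph-like cells were lowest at 11.95 and 9.89 CPM.

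Against hormone cells, Mt3 was higher in folliculostellate-like cells by 4.68 (SE 0.15, edgeR adjusted p = 6.16e-18) and in pituicyte-like cells by 4.35 (SE 0.15, adjusted p = 5.312e-17). In pituicyte-like cells 2 of the 6 genes, Mt3 and Gstm1, were called higher than in hormone cells and none was called lower, against 20.4% and 14.5% of all genes (35% in all). The difference in Mt3 between the 2 glia-like classes was 0.33 (SE 0.21, adjusted p = 0.197), or a ratio of levels of 1.10 (95% counting interval 1.07 to 1.13) in the dissected and 1.27 (1.19 to 1.37) in the whole preparation. The dissected ratio sets the anterior against the posterior library. Within the posterior library, the only dissected one with both classes, the order was turned, at 1186 against 1281 CPM. These exact intervals cover counting error only and not the spread between preparations. Mt2A and Mt3, adjacent genes, thus had different patterns in pituicyte-like cells.

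Aldh3a1, a dehydrogenase of medium-chain and aromatic aldehydes known as an abundant protein of the cornea, was at 724 CPM in folliculostellate-like cells of the anterior library, 501 in the posterior library, and 600 and 617 in the lanes. The pooled hormone cells held 73 of 52931556 UMIs in the dissected and 84 of 94253605 in the whole preparation. The level in folliculostellate-like cells was 525-fold (417 to 670) and 682-fold (550 to 856) that of these pooled cells. The edgeR log2 change was 8.88 (SE 0.23, adjusted p = 1.75e-19). Pituicyte-like cells held 41 UMIs in the dissected and 2 in the whole preparation, or 4.58 and 2.22 CPM. The difference between the 2 glia-like classes was 7.28 (SE 0.39, adjusted p = 7.051e-13). Pituicyte-like against hormone cells the change was 1.60 (SE 0.70, adjusted p = 0.05575) and was not called, though it was under 6 of 17 alternatives, such as 2.63 (adjusted p = 0.02054) without the anterior library.

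Fibroblast-like cells were second in Aldh3a1, at 68.2, 57.2, 49.6 and 52.4 CPM in the anterior, posterior, lane 1 and lane 2 libraries, and did not overlap folliculostellate-like cells. Macrophage-like cells ranged from 0.472 CPM (posterior) to 88.6 CPM (lane 1). Of the 133 Aldh3a1 UMIs in 831 macrophage-like cells, 94 came from 3 cells. Cells with the transcript held 1273 CPM of 5 folliculostellate markers and those without it 103 CPM, and the part of this in the macrophage value was not tested. In 84 Schwann-like cells Aldh3a1 was at 0 UMIs, which allows up to 9.56 CPM in the posterior library (3 counts).

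Gstm1, a mu-class glutathione transferase, was at 529 CPM in folliculostellate-like cells of the anterior library, 419 in the posterior library, and 592 and 567 in the lanes. Pituicyte-like cells had 51.3 CPM in the posterior library and 64.2 and 54.2 in the lanes. The 3 libraries with both classes thus showed the same order. The ratio was 10.3 (9.37 to 11.4) in the dissected and 9.70 (7.43 to 12.9) in the whole preparation. The dissected ratio sets the anterior against the posterior library, and within the posterior library the levels were 419 against 51.3 CPM. The edgeR difference was 3.40 (SE 0.18, adjusted p = 6.27e-13).

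Gstm1 was also called higher in pituicyte-like than in hormone cells, by 2.80 (SE 0.19, edgeR adjusted p = 1.383e-11). Against hormone cells the folliculostellate-like difference was 6.20 (SE 0.12, adjusted p = 2.031e-21). Fibroblast-like cells ranked second at 105 CPM (dissected) and 92.4 CPM (whole), and somatotroph-like cells were lowest at 3.01 and 2.45. Gstm1 lies among the related genes Gstm2, Gstm3 and Gstm4, and how the counting divided reads between such paralogs is not known, so its level is uncertain to that extent.

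Gpx3, the secreted glutathione peroxidase of plasma, had the opposite pattern. Its order of classes began with fibroblast-like cells (2800 CPM dissected, 1161 whole) and thyrotroph-like cells (1581 and 1318), which overlapped. Gonadotroph-like (830 and 733), somatotroph-like (756 and 622) and lactotroph-like cells (674 and 586) followed, again with overlapping ranges between neighbours. Pituicyte-like cells stood at 441 CPM in the posterior library and 426 and 382 in the lanes, beside corticotroph-like cells at 416 and 374 CPM in the 2 preparations. Endothelial-like cells (354 and 107 CPM) and melanotroph-like cells (93.9 and 121 CPM) came next. Folliculostellate-like cells had 89.4 CPM in the anterior library, 24.7 in the posterior library, and 71.8 and 66.6 in the lanes, and overlapped macrophage-like cells at the foot of the order.

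Against hormone cells Gpx3 was lower in folliculostellate-like cells by a log2 change of -3.28 (SE 0.30, edgeR adjusted p = 2.064e-09). Against pituicyte-like cells it was lower by -2.32 (SE 0.32, adjusted p = 2.592e-06). In pituicyte-like cells the change against hormone cells was -0.96 (SE 0.26, adjusted p = 0.003084), which is under the size needed for a call and passed it under 5 of 17 alternatives. The low level in folliculostellate-like cells moved with hormone RNA, whose part in it was not tested. When cells with over 10% of UMIs from hormone genes were left out, it was 45.5 CPM (dissected) and 39.3 CPM (whole), and when doublets were kept, 133 and 105 CPM. After thinning each cell to 2000 UMIs, 8.16% of folliculostellate-like cells of the anterior library and 6.25% of those of the whole glands held a Gpx3 UMI, and 6.88% and 7.18% of macrophage-like cells (median depths before thinning 6519 and 6142 against 4688.5 and 4915 UMIs). Unthinned, the shares were 22.6% and 20.2% against 17.5% and 15.6%. The ratio of Gpx3 levels in folliculostellate- to macrophage-like cells was 1.43 (95% counting interval 1.22 to 1.68) in the dissected preparation. In the whole preparation it was 0.999 (0.841 to 1.20). Within the posterior library the order was turned, at 24.7 against 41.6 CPM, and the difference between these classes was not tested.

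Within fibroblast-like cells Gpx3 was at 515 CPM in the anterior library, 3461 in the posterior library, and 1153 and 1167 in the lanes, so the high dissected value came from the posterior library. The class pools 2 kinds of stroma, since 101 of its 328 cells held more UMIs of mural than of fibroblast markers. Those 101 cells had 254 CPM of Gpx3, and the remaining cells 802 CPM in the anterior library, 3777 in the posterior library, and 1500 and 1407 in the lanes. Against hormone cells the class was called higher in Gpx3 by 1.33 (SE 0.22, edgeR adjusted p = 3.337e-05). Without the posterior library the difference was 0.27 (adjusted p = 0.1641) and the call was lost.

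Fmo1, the flavin-containing monooxygenase that lies between Fmo4 and Fmo2, was at 114 CPM in folliculostellate-like cells of the anterior library, 85.1 in the posterior library, and 107 and 104 in the lanes. Pooled hormone cells held 7 UMIs in the dissected and 11 in the whole preparation, so the level was 860-fold (416 to 2146) and 906-fold (505 to 1818) higher. Fmo1 had the largest fitted folliculostellate-like difference of the 6 genes, 9.20 (SE 0.19, edgeR adjusted p = 3.526e-21). That of Aldh3a1 was close, at 8.88 (SE 0.23), and the order of these genes was not tested. Pituicyte-like cells held 3 UMIs in each preparation, which is 0.335 and 3.33 CPM. The ratio of folliculostellate- to pituicyte-like cells was 339 (116 to 1649) in the dissected and 31.8 (10.9 to 154) in the whole preparation. The dissected ratio sets the anterior against the posterior library, and within the posterior library the levels were 85.1 against 0.335 CPM. The edgeR difference was 7.49 (SE 0.32, adjusted p = 1.815e-14). Pituicyte-like against hormone cells the change of 1.71 (SE 0.93, adjusted p = 0.1235) was not called. It was called under 3 of 17 alternatives, at 2.68 without the anterior library, 4.20 without the posterior library and 1.93 with DESeq2.

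The only other class of the fit with more than 5 CPM of Fmo1 in both preparations was fibroblast-like, at 28.3 and 38.4 CPM, and 48 of its 328 cells held the transcript, with 9 of the 64 UMIs in the 3 richest cells. In Schwann-like cells, a class too small for the fit, Fmo1 gave 24 UMIs in 14 of 84 cells (51.0 CPM in the posterior library and 76.0 CPM in the whole glands). Thyrotroph-like cells had none in either preparation.

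**Figure D2:**
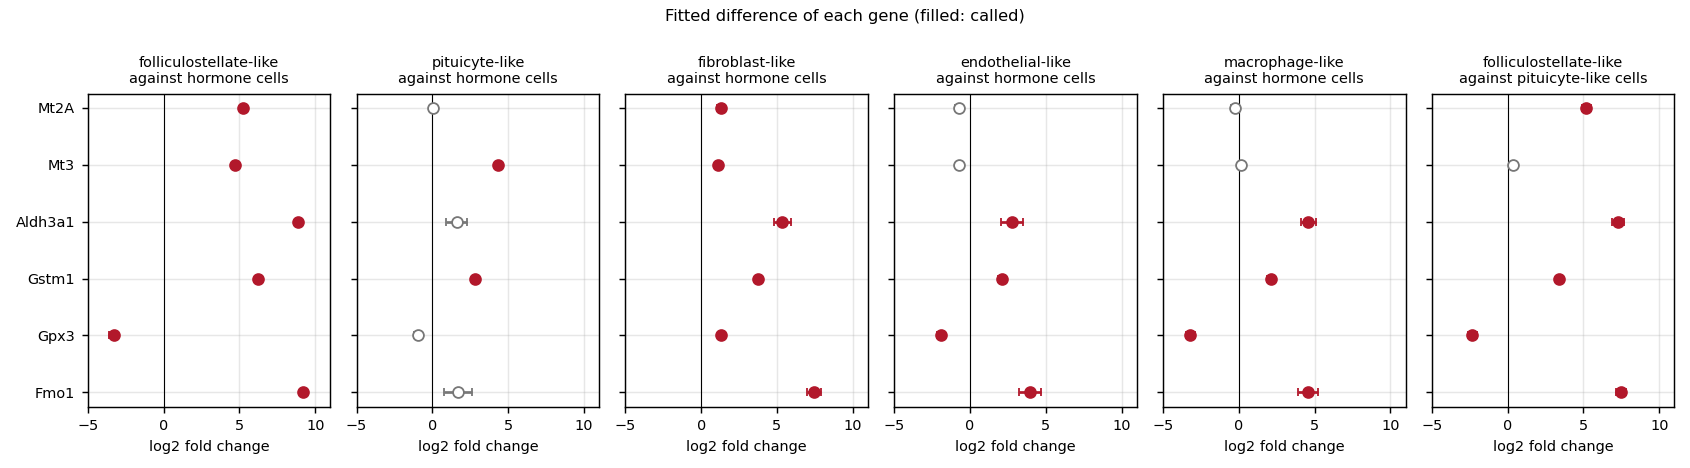
Fitted log2 fold change of each of the 6 genes in 6 comparisons of cell classes, with the standard error as a bar and filled points for called differences. Folliculostellate-like cells were higher than hormone cells in 5 genes and lower in Gpx3, with changes from -3.28 to 9.20, and Mt3 at 0.33 was the gene not called between the 2 glia-like classes.

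In fibroblast-like cells all 6 genes were called higher than in hormone cells, where 33.4% of all genes were called (21.2% higher). Their log2 changes there were 7.43 (SE 0.46) for Fmo1, 5.34 (SE 0.55) for Aldh3a1, 3.76 (SE 0.24) for Gstm1, 1.27 (SE 0.25) for Mt2A and 1.10 (SE 0.21) for Mt3, beside Gpx3 above. The call for Mt3 was lost under 7 of 17 alternatives, down to 0.57 (edgeR adjusted p = 0.1104) without the anterior library, and that for Mt2A under 2, at 0.92 without lane 2 and at 0.81 with coarser clusters. Fibroblast-like cells with Mt2A held 1593 CPM of the 5 folliculostellate markers and those without it 772 CPM, and 60 of the 116 Mt2A UMIs were in 3 cells.

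Endothelial-like cells were called higher than hormone cells in Gstm1 (2.10, SE 0.24), Aldh3a1 (2.77, SE 0.70) and Fmo1 (3.95, SE 0.75) and lower in Gpx3 (-1.91, SE 0.28), 4 of 6 genes where 47.1% of all genes were called (27.8% higher, 19.3% lower). Mt2A and Mt3 were at -0.73 (SE 0.27, edgeR adjusted p = 0.02291) and -0.71 (SE 0.22, adjusted p = 0.006977), under the size for a call. Mt3 reached -1.37 without the posterior library and Mt2A -1.14 without lane 2, where each was called. Of 47 Aldh3a1 UMIs in 528 endothelial-like cells, 27 were in 3 cells, and of 14 Fmo1 UMIs, 8 were.

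Macrophage-like cells were called higher in Aldh3a1 (4.57, SE 0.50), Fmo1 (4.56, SE 0.69) and Gstm1 (2.13, SE 0.26) and lower in Gpx3 (-3.19, SE 0.31), against 43.1% of all genes called (22.9% higher, 20.3% lower). Mt2A at -0.23 (edgeR adjusted p = 0.4751) and Mt3 at 0.16 (adjusted p = 0.509) were not called. Of the 18 Fmo1 UMIs, 12 were in 3 cells, and the 9 cells with the transcript held 1842 CPM of the folliculostellate markers against 114 CPM in the others. The Gstm1 UMIs were spread over 85 of 831 cells, with 28 of 133 in the 3 richest.

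Taken singly, Mt2A, Mt3, Aldh3a1 and Gstm1 were each detected in most folliculostellate-like cells. At 2000 UMIs per cell, Mt3 was detected in 89.0% of them in the anterior library and 85.3% in the whole glands, Mt2A in 75.8% and 67.1%, Aldh3a1 in 65.9% and 59.0%, Gstm1 in 61.3% and 67.6%, and Fmo1 in 19.7% and 19.6%. In lactotroph-like cells at the same depth the shares were 14.5% and 14.7% for Mt3, 1.39% and 0.982% for Mt2A, 0.269% and 0.173% for Aldh3a1, 0.494% and 0.462% for Gstm1, and 0% for Fmo1. Median depths before thinning were 6519 and 6142 UMIs in folliculostellate-like and 15124.5 and 16361 in lactotroph-like cells, and 38 and 118 folliculostellate-like cells were too shallow to enter. Unthinned, the folliculostellate-like shares were 96.9% and 96.2% for Mt3, 91.2% and 86.3% for Mt2A, 84.8% and 79.6% for Aldh3a1, 89.6% and 88.7% for Gstm1, and 54.0% and 47.4% for Fmo1.

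Pituicyte-like cells of the posterior library held an Mt3 UMI in 84.2% of cells at the same thinned depth, and a Mt2A UMI in 5.58% (92.6% and 16.5% unthinned). Gpx3 was detected in 53.5% of them. Fmo1 was seen in 3 of 1108 unthinned pituicyte-like cells of that library (0.271%) and in 3 of 97 of the whole glands (3.09%), and in 0.0447% and 0.172% of unthinned lactotroph-like cells of the anterior library and the whole glands. Median depths of these cells were 6335.5, 8880, 15074 and 16256 UMIs. After thinning none was left in 843 and 87 pituicyte-like cells, which at 2000 UMIs allows shares of cells with a UMI of up to 0.437% and 4.15% (exact 95% limits). Shallow cells left out numbered 265 and 10.

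Counted per cell, 31.2% of thinned folliculostellate-like cells of the anterior library held 3 of the 6 transcripts and 35.5% held 4, and in the whole glands 34.7% and 30.0%. In the whole glands 1.34% held none and 0.319% all 6. Gstm1 was found in 72.4% of cells with an Aldh3a1 UMI and 60.7% of those without, and Mt3 in 87.0% of cells with Mt2A and 82.0% without. Other pairs ran the opposite way in the whole glands, but not in every library. Fmo1 was found there in 18.81% of cells with Aldh3a1 and 20.8% without. In the dissected libraries this pair was turned, at 22.3% against 14.5% (anterior) and 19.5% against 14.7% (posterior). With Mt2A, Fmo1 was found in 18.82% of whole-gland cells and 21.3% of those without. The anterior library had 17.6% and 26.0%, and the posterior library the other order, 18.7% and 14.4%. In the whole glands the 10% of cells with most UMIs of a gene held 38.6% of the thinned UMIs of Mt2A, 27.3% of Mt3, 43.0% of Aldh3a1 and 33.2% of Gstm1. Each of these shares describes cells of 1 pool and carries no test.

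Folliculostellate-like cells fell into 3 clusters that were made without these genes. Cluster 4 (1410 cells, median 6420.5 UMIs) was led by Gpha2 and Slc16a11, cluster 8 (808 cells, 4752.5 UMIs) by Gpha2, Guca2b, Agt and Hes5, and cluster 12 (641 cells, 11630 UMIs) by Krt17, Tent5b and Edn2. Mt2A was highest in cluster 4, with 1299, 1440, 1058 and 1044 CPM in the anterior, posterior, lane 1 and lane 2 libraries, against 552, 562, 468 and 521 in cluster 8 and 945, 773, 737 and 713 in cluster 12. The order of the 3 clusters was the same in all 4 libraries. Mt1 followed it more steeply, from 956 to 1156 CPM in cluster 4 to 136 to 215 CPM in cluster 8.

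Aldh3a1 differed in another way. It was at 942, 857, 840 and 906 CPM in cluster 4 and 1020, 986, 939 and 973 CPM in cluster 8, but at 390, 250, 224 and 224 CPM in cluster 12. Gstm1 was likewise lowest in cluster 12 in each library (293 to 396 CPM against 607 to 831 CPM in the others). Mt3 ran from 896 to 1217 CPM in cluster 12 and from 1481 to 1747 CPM in cluster 8, with cluster 4 at 1189 to 1588 CPM, and cluster 4 lay between the others in each library. Fmo1 ran from 69.6 to 126 CPM over all clusters and libraries. Gpx3 stood at 15 to 122 CPM, lowest in the posterior library in each cluster, and hormone genes made up 0.968% to 2.42% of UMIs in the clusters of that library and 2.77% to 7.92% in those of the others.

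**Figure D3:**
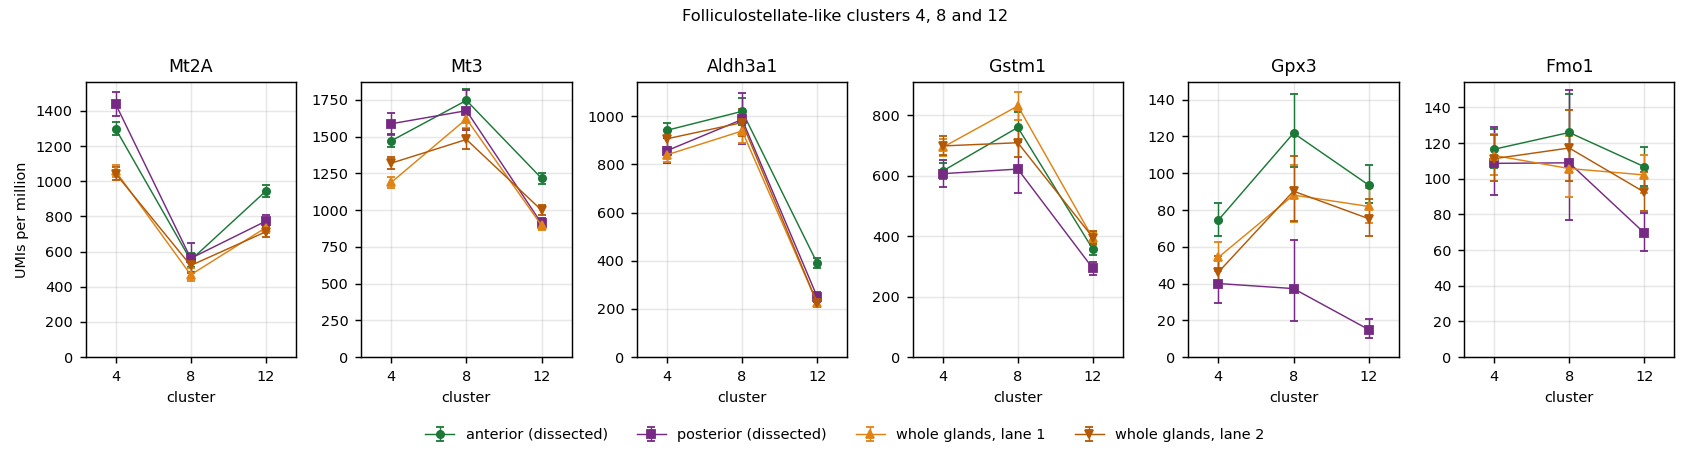
Level of each gene in folliculostellate-like clusters 4, 8 and 12. The vertical axis is CPM from 0, each line is 1 library, and bars are exact 95% intervals for counting error. In all 4 libraries Mt2A was highest in cluster 4 and lowest in cluster 8, while Aldh3a1 and Gstm1 were lowest in cluster 12.

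Each preparation is 1 pool, so a difference between the preparations has no test. As values of the fit, averaged over classes, the log2 differences of dissected over whole were 0.38 for Gpx3, 0.35 for Mt2A and 0.30 for Mt3. Those of Aldh3a1 (-0.02), Gstm1 (-0.13) and Fmo1 (0.04) were smaller.

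The wider families were read from 6 lists with 157 genes, of which 144 were in the matrix and 119 were tested, the 6 genes included. The lists too were chosen with earlier results of these data known, so their shares of calls are a description only. In folliculostellate-like against hormone cells 65 of 119 (54.6%) were called higher and 5 (4.2%) lower, beside the 22.9% and 12.2% of all genes, with a median log2 change of 1.34 beside 0.04 for all genes. Among monooxygenases and conjugating enzymes 20 of 27 were called higher and 0 lower (median 3.52), and among glutathione transferases 11 of 17 higher and 1 lower (median 1.75). Metallothioneins and zinc handling gave 9 higher and 1 lower of 15 (median 1.19), and aldehyde and alcohol metabolism 12 and 1 of 24 (median 1.14). Peroxidases and antioxidant enzymes gave 8 and 1 of 21 (median 0.31), and glutathione synthesis and NRF2 targets 5 and 1 of 15 (median 0.29). Pituicyte-like against hormone cells gave 53 higher and 5 lower of 119 (44.5% and 4.2% beside 20.4% and 14.5% of all genes, and a median of 0.98 beside 0.01). A higher share than over all genes was not confined to the glia-like classes. Fibroblast-like cells gave 59 higher and 3 lower (49.6% and 2.52% beside 21.2% and 12.2%), with 21 of 27 monooxygenases higher (median 3.76). Endothelial-like cells gave 49 and 14 (41.2% and 11.8% beside 27.8% and 19.3%). Macrophage-like cells gave 36 and 12 (30.3% and 10.1% beside 22.9% and 20.3%).

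Retinal-oxidising dehydrogenases stood with Aldh3a1. Aldh1a1 was at 382 and 325 CPM in folliculostellate-like cells and at 17.3 and 25.5 CPM in pituicyte-like cells of the dissected and whole preparations, a difference of 4.42 (SE 0.27, edgeR adjusted p = 4.449e-12). Aldh1a2 was at 162 and 156 CPM against 0.335 and 0 CPM, where 3 counts would be 3.33 CPM. Aldh2, the mitochondrial dehydrogenase of acetaldehyde, was at 311 and 319 CPM against 216 and 195, and was called higher than in hormone cells in both glia-like classes (5.81, SE 0.11, and 5.14, SE 0.13). Akr1a1, an aldehyde reductase, was lower in folliculostellate- than in pituicyte-like cells by -1.30 (SE 0.14, adjusted p = 5.98e-08).

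Among the transferases Gstm6 was at 61.7 and 60.5 CPM in folliculostellate-like cells against 1.34 and 0 CPM in pituicyte-like cells, and Gstm7 at 236 and 229 against 111 and 115. Gsta4, which conjugates the lipid aldehyde 4-hydroxynonenal, ran the other way, at 146 and 194 CPM against 1627 and 1390 (-3.05, SE 0.28, edgeR adjusted p = 4.778e-09), and was called higher than in hormone cells in both. The microsomal Mgst1 was at 396 and 426 against 357 and 354 CPM and was not called between them (0.29, adjusted p = 0.1689). Gsto1 was called lower than in hormone cells in both classes (-2.02 and -2.03). Gstm6 and Gstm7 are paralogs of Gstm1 and carry the same doubt about shared reads.

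Maob, the monoamine oxidase of glia, was at 103 and 94.4 CPM in folliculostellate-like and 362 and 312 CPM in pituicyte-like cells, against 0.522 and 0.355 in hormone cells. The epoxide hydrolase Ephx1 was also called higher than in hormone cells in both (5.53, SE 0.15, and 6.20, SE 0.16), as was the quinone reductase Nqo1 (4.38, SE 0.13, and 3.27, SE 0.19). Of the antioxidant enzymes with the highest levels, Prdx1 was called higher in pituicyte-like cells (1.56, SE 0.10) and stood at 0.98 in folliculostellate-like cells, under the size for a call. Prdx2 and Sod1 differed from hormone cells by -0.25 and 0.00 in folliculostellate-like and by 0.13 and 0.41 in pituicyte-like cells and were not called, and Gpx4 was not called either (-0.59 and 0.22). Nfe2l2, which encodes NRF2, was called higher in both classes (1.19 and 1.04), and Keap1, its inhibitor, was called lower in folliculostellate-like cells (-1.22).

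Between the 2 glia-like classes 31 of the 119 listed genes (26.1%) were higher in folliculostellate-like and 15 (12.6%) in pituicyte-like cells, against 17% and 12.3% of all genes. Of the zinc transporters, Slc30a5 was lower in folliculostellate-like cells (-1.84, SE 0.14, edgeR adjusted p = 2.302e-10) and Slc39a10 did not reach a call (0.05, adjusted p = 0.8486). In the monooxygenase list, Cyp4f4 was at 4.97 and 4.34 CPM in folliculostellate-like and 26.2 and 18.9 CPM in pituicyte-like cells.

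**Figure D4:**
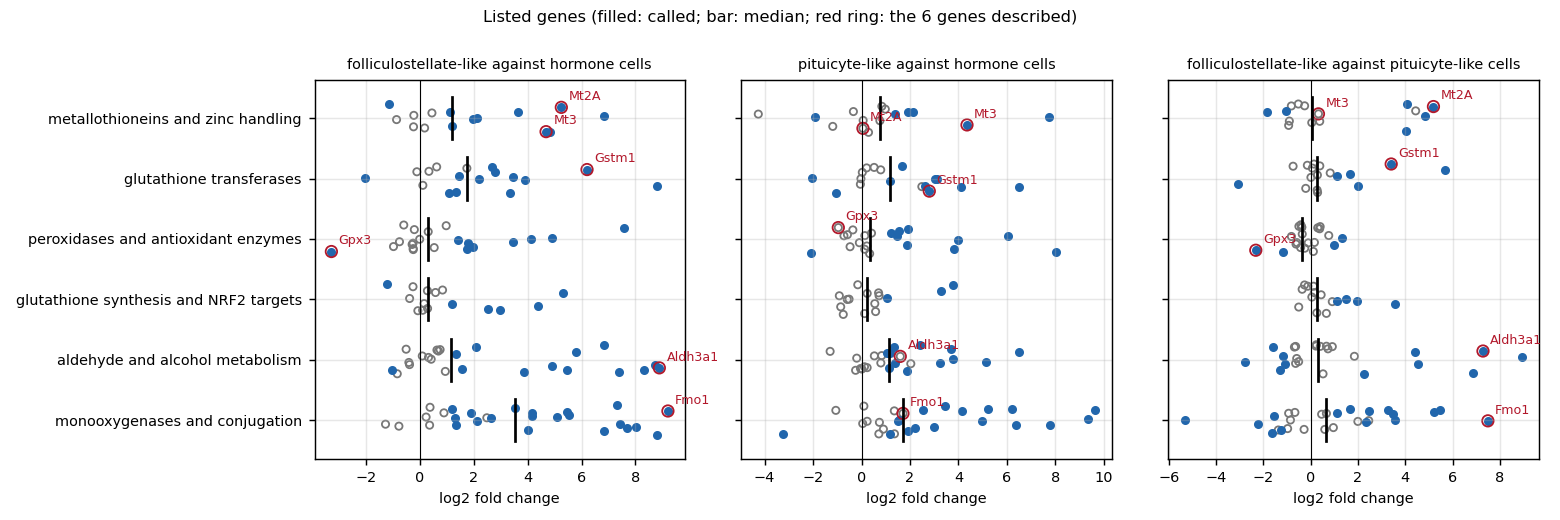
Log2 fold change of the listed genes in 3 comparisons, 1 point per tested gene by list, filled where called, with a bar at the list's median and a red ring around the 6 genes described. In folliculostellate-like against hormone cells the monooxygenase list has the highest median of the lists, 3.52. The medians between the 2 glia-like classes lie between -0.36 and 0.66.

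Across the 20 class sums, the genes most like each of the 6 were found by Pearson's r of log2(CPM + 1) among 9776 genes. Those most like Mt2A were P2rx2 (0.94), Nhs (0.92) and AABR07030823.1 (0.90), and those most like Mt3 were Six3 (0.93), Gpm6a (0.91) and S100a1 (0.88). Aldh3a1 was most like Hey2 (0.97), Grifin (0.96) and Fmo1 (0.95), Fmo1 most like Aldh1a2 (0.97), Has2 (0.96) and Prrx1 (0.95), and Gstm1 most like Glipr2 (0.95), Galm (0.94) and Hspb8 (0.93). Gpx3 was most like Fam114a1 (0.87), Tmem39a (0.86) and Kdelr1 (0.85). Among the 6, r was 0.951 for Aldh3a1 with Fmo1 and 0.524 for Mt2A with Mt3, and Gpx3 had r from -0.346 to -0.143 with the others. The sums share 2 preparations and their class structure, so r is a description without a test.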

How the data were processed

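The deposited matrix holds UMI counts per gene and cell barcode, made by the authors with Cell Ranger 3.1 per the submitters' processing notes from Chromium 3′ v3 libraries. The genome build is not given in the sources used here. The deposited barcode list carries a suffix that the labels tie to each of the 4 libraries. The members and gene lists were chosen with earlier results of these data known. Library totals ran from 61981865 to 72754998 UMIs in 32455 barcodes.

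Of these, 20381 had 1000 UMIs or more, 500 genes or more and a mitochondrial share of up to 20%. Scrublet doublets (604, score over 0.25) and 53 barcodes with over 1% haemoglobin UMIs, a limit chosen after seeing the data, were removed. With scanpy 1.11.5, 2000 variable genes other than listed ones and 30 components, leidenalg 0.10.2 at resolution 1.0 gave 24 clusters, named from markers. Rebuilt names may differ from the study's.

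Counts were summed by class and preparation, with folliculostellate- and hormone-cell sums of the dissected preparation from the anterior library, pituicyte- and melanotroph-like sums from the posterior and the other classes from both. The 20 sums of 10 classes were tested with edgeR 4.0.16 (TMM, filterByExpr, quasi-likelihood, preparation as a term, 9 residual degrees of freedom) and Benjamini-Hochberg adjustment over 15197 genes. Thyrotroph-like cells (49 in the dissected preparation, under the minimum of 50) were left out of the fit, a departure from the planned mean over hormone classes. The planned test of dissected against whole preparation is given as values only, since each is 1 pool. Tested on simulated data of 13841 genes for folliculostellate-like against hormone cells, the fit called all 50 genes set to a 4-fold increase. Of the 50 set to 2-fold, which lies at the size cutoff itself, 50 passed on p and 25 were called. For decreases, 50 of 50 were called at 4-fold, and at 2-fold 47 passed on p and 22 were called. Of 13641 unchanged genes, 12 passed on p and 2 were called. Of each list, the text names genes by rule: the 4 highest in the glia-like classes and the 2 largest called changes each way among those of at least 20 CPM. Not all of these are printed. Alternatives included DESeq2 1.42.0, RLE scaling and libraries left out.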

Additional observations from a re-analysis of the deposited data

How the results depend on the processing

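Under 17 alternatives, 14 planned and 3 chosen after seeing the data, each of the 6 genes kept its direction and call in folliculostellate-like against hormone cells, and likewise against pituicyte-like cells, where Mt3 was never called. Of the fold changes of the 6 genes over the comparisons of classes and all alternatives, 576 kept their side of the threshold, 17 gained a call, 10 lost it and 9 changed sign. The cause of these changes was not tested. With DESeq2 size factors the median change of all genes moved from -0.07 to 0.07 for fibroblast-like and to 0.05 for macrophage-like against hormone cells. Genes called in folliculostellate- against pituicyte-like cells numbered 4457, from 2913 (without the posterior library) to 4301 (without lane 2) with a library left out, and 2372 with at most 10% mitochondrial UMIs. For pituicyte-like against hormone cells the counts were 5314, from 3527 (posterior) to 5096 (lane 1) with a library left out, and 3418.

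All values that changed sign were uncalled as reported, or, between preparations, untested. Mt2A in pituicyte-like against hormone cells was -0.058 (without lane 2) to 0.47 with a library left out, -0.056 with at least 3000 UMIs, -0.0005 without hormone-rich cells, -0.01 with thyrotroph-like sums and -0.053 without the shallow pituicyte-like cluster. In macrophage-like against hormone cells Mt2A was -0.47 to 0.53 (without the posterior library) with a library left out and 1.04 with doublets kept, and Mt3 was -0.041 without the anterior library and -0.18 without lane 1, up to 0.41 without lane 2. Between preparations Mt2A was -0.035 without the anterior library. Aldh3a1 was -0.69 without the anterior library, 0.14 without the posterior library, 0.23 without lane 1, 0.15 with doublets kept, 0.009 without hormone-rich cells and 0.28 with DESeq2. Fmo1 was -0.5 without the anterior and 0.2 without the posterior library, -0.056 with both dissected libraries in every class, -0.043 with at most 10% mitochondrial UMIs and -0.056 with DESeq2.

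By replicate number no paired analysis was possible because the numbers in the labels mark only the 2 lanes of 1 suspension. The fit itself compares classes within each preparation, which is one of its terms. Counts of 3 Fmo1 UMIs in each preparation and of 2 Aldh3a1 UMIs in the whole glands limit the ratios to pituicyte-like cells.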
